A study of Sus scrofa with 27 samples.

Results

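The full-fed (FF) granulosa cells (GCs) described here were 13 of the 27 libraries of the series, and they were chosen by the label of the diet alone, a standard ration of 6.5 kg feed per day. Each library held the mural GCs of 1 sow, taken by laser capture microdissection (LCM), in which cells are excised from a tissue section under a microscope, from the largest healthy follicle of that sow. The sows were wild-type primiparous crossbreds of Large White and Norwegian Landrace, they had received the standard ration through the last 2 weeks of lactation, they were given after weaning the same smaller ration as all other sows of the study, and the ovaries were collected on day 2 post-weaning. The study kept for this group the sows that had lost the least body weight, so that the spread between them covers well-fed animals only. Sows carry the numbers of their labels, which run from 1 to 14 without sow 9. Replicates were separate animals, each with 1 follicle and 1 library, so the spread between libraries includes differences between sows, between follicles and between sections. Genes entered when their counts averaged 5 or more across the 13 libraries. This limit was passed by 17499 of 35670 Ensembl identifiers, of which 11404 had a gene symbol. Just inside the limit lay LRRC4, with a mean count of 5 and counts of 2 to 8, and just outside lay IER3, with a mean of 4.92 and counts of 0 to 9.

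Mural GCs line the inner wall of the antral follicle. They proliferate under follicle-stimulating hormone (FSH), secrete inhibins, activins and follistatin, and convert androgens from the neighbouring theca cells to oestrogens. As the follicle nears ovulation they gain receptors for luteinizing hormone (LH), leave the cell cycle and build up the machinery that turns cholesterol into progesterone. CDK1, the kinase that drives cells into mitosis, and CYP11A1, the mitochondrial enzyme that cleaves the side chain of cholesterol, are associated with these opposite ends, and they served as the anchors of the correlations described here. CYP11A1 is also a marker of theca cells, whose part in its values was not tested.

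Total counts per library ranged from 12299220 in sow 10 to 16021200 in sow 13, with a median of 13490513. Between 19.0% and 43.9% of all counts fell on the same pair of identifiers without a symbol, and between 8.76% and 15.3% on the 13 protein genes of the mitochondrial genome. Sow 10 stood apart from the other sows. The unnamed pair took its largest share there. Outside this pair and the 13 mitochondrial protein genes, 5251530 counts were left, compared with 7587986 to 9744174 in the other 12 sows. Across genes, which do not count as replicates, its median correlation with the other libraries was 0.917, whereas the other medians lay between 0.949 and 0.963. Of all identifiers, 21.7% had their highest and 22.4% their lowest normalised count in sow 10, compared with 3.51% to 9.71% and 3.44% to 9.01% in the others. The labels say that FF sow 9 was left out for a low RNA integrity number, whereas the study's own list puts the lowest RNA integrity of the group under FF sow 10, so it is uncertain which of them this library holds. For the most variable and most abundant genes described, the range without sow 10 is added where it was much narrower. Normalised counts are counts divided by size factors of DESeq2, which correct for library size but not for gene length. TPM values (transcripts scaled to the same total in each library) correct for both and were used wherever levels of different genes were compared.

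The label of the tissue was checked with the GC markers VCAN, INHBA, CYB5A, FST, INHA and FOXO1. None was at 0 in any sow, and their summed normalised count was 66249 to 122606, with the lowest sum in sow 10. FST, which encodes follistatin, had the highest level, 1646 ± 586 TPM (SD, n = 13), followed by CYB5A with 1486 ± 523 TPM, INHA with 1213 ± 503 TPM, VCAN with 947 ± 291 TPM and FOXO1 with 320 TPM, or 122 to 528 TPM over the sows. In this order, each SD exceeded the distance to the next level, except between VCAN and FOXO1. INHBA had no RefSeq length and was therefore left out of the order, and its normalised counts ran from 6999 in sow 14 through a median of 11808 to 16473 in sow 11. The receptors were unevenly represented, with LHCGR, the LH receptor, at 1556 ± 723 TPM and FSHR, the FSH receptor, at 56.1 ± 36.6 TPM. AMH, anti-Müllerian hormone, was at 0.694 ± 0.393 TPM.

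The measured markers of other cells were present in all 13 libraries. The 12 measured theca and stroma markers had a median level of 94.6 TPM, and among them COL3A1, a fibrillar collagen, was at 487 ± 166 TPM, INSL3, a theca hormone, at 263 ± 141 TPM and CYP17A1, the androgen-forming enzyme of theca cells, at 126 ± 94.7 TPM. No member of this list was at 0 in any sow. The summed normalised count of the list ran from 14043 to 39649. The 7 measured of 8 endothelial markers had a median of 8.02 TPM and the 5 measured of 8 immune markers a median of 2.93 TPM. Of 4 erythroid markers, 2 were measured. Markers not measured had no symbol or a mean count below 5, so these medians leave out undetected members. GDF9, an oocyte growth factor and the only measured member of the 6 oocyte markers, was at 37.6 ± 8.05 TPM. The erythroid sum was 996.8 normalised counts in sow 14 and 34.1 to 189 in the other sows, and the immune sum was 399 in sow 14 and 83.1 to 223 in the others. In such bulk libraries, fewer cells of a type and less RNA per cell cannot be told apart.

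**Figure D1:**
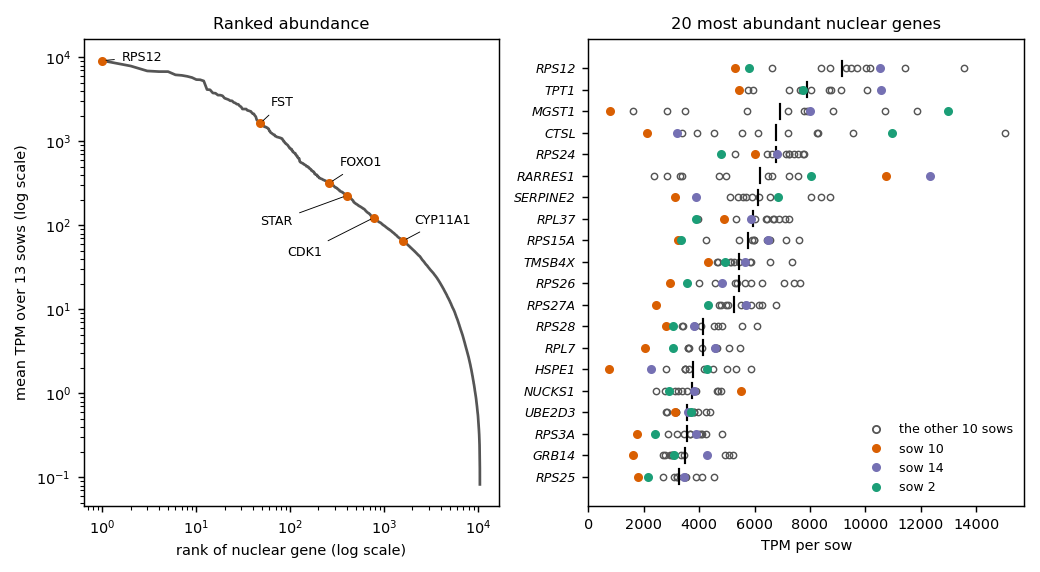
Left, mean TPM over 13 FF sows against the rank of each of 10484 nuclear genes, both axes on a log scale, with 6 genes marked. Right, TPM of the 20 most abundant nuclear genes, where each circle is a sow, filled for sows 2, 10 and 14, and the bar is the mean. RPS12 leads with a mean of 9159 TPM, and MGST1 is spread from 785 TPM in sow 10 to 12979 TPM in sow 2.

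Ranking by abundance asked which transcripts make up the baseline GC. Among the 10484 nuclear genes with a RefSeq length, 85 reached 1000 TPM, 908 lay between 100 and 1000 TPM, 4497 between 10 and 100 TPM, 3886 between 1 and 10 TPM and 1108 below 1 TPM. The 20 most abundant genes held 17.6% ± 1.51 of nuclear TPM (SD, n = 13), the 100 most abundant 38.4% ± 2.49 and the 1000 most abundant 71.0% ± 2.24. The 13 protein genes of the mitochondrial genome, which encode subunits of the respiratory chain and ATP synthase, held 39.1% ± 6.23 of all TPM, with a range of 28.1% to 51.9%. Of these, 10 had their lowest normalised count in the same library, sow 8.

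Genes of the ribosome, a secreted protease inhibitor and detoxifying and lysosomal enzymes led the nuclear genes. Of the 20 most abundant, 10 encode ribosomal proteins, led by RPS12 with 9159 ± 2273 TPM and RPS24 with 6776 ± 935 TPM (SD, n = 13). TPT1, a translationally controlled protein, followed RPS12 with 7905 ± 1573 TPM. Ribosomal protein genes have many pseudogene copies, and only uniquely aligned reads entered the counts, so these levels are uncertain. RPS28 and RPS25 also overlap neighbouring genes, NDUFA7 and CCDC84.

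Several leading genes outside the ribosome varied more. MGST1, a microsomal glutathione transferase, was at 6902 ± 3851 TPM, and its normalised count ran from 2751 in sow 10 through a median of 29724 to 53139 in sow 2, a 19.3-fold range that was 7.69-fold without sow 10. CTSL, the lysosomal protease cathepsin L, was at 6780 ± 3644 TPM, with normalised counts of 11978 in sow 10, a median of 32355 and 75612 in sow 8, a range of 3.85-fold without sow 10. RARRES1, a gene induced by retinoic acid, was at 6202 ± 3043 TPM, with 25067 in sow 3, a median of 58554 and 116169 in sow 14. SERPINE2, a secreted inhibitor of plasminogen activators, was at 6113 ± 1638 TPM, with 24225 in sow 10 and 84793 in sow 7. The adjoining levels in this order, from TPT1 to TMSB4X, an actin-binding protein, at 5447 ± 827 TPM, were closer together than their SDs. HSPE1, the mitochondrial co-chaperonin, was at 3773 ± 1351 TPM and had its lowest normalised count, 1711, in sow 10 and its highest, 16734, in sow 7, a 9.78-fold range that was 3.02-fold without sow 10. GRB14, an adapter that restrains the insulin receptor, was at 3494 ± 1076 TPM with 13541 in sow 10 and 55125 in sow 6, and without sow 10 its range was 2.31-fold. Sow 10 held the lowest normalised count of 16 of the 20 genes, and ranking without it gave the same 20.

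Below these leaders, SMAD2, which carries activin signals to the nucleus, was at 2282 ± 406 TPM and PRKAR2B, a regulatory subunit of the cAMP-dependent kinase, at 1198 ± 264 TPM. FDX1, the electron donor of CYP11A1, was at 1119 ± 448 TPM, well above its partner enzyme. CYP11A1 itself was at 65.6 ± 38.9 TPM, STAR, which carries cholesterol into mitochondria, at 226 ± 222 TPM and CDK1 at 124 ± 65.4 TPM. Among mediators of ovulation, NRIP1, a nuclear receptor corepressor, was at 214 ± 53.7 TPM and PGR, the progesterone receptor, at 9.94 ± 2.26 TPM. PTGS2, the inducible prostaglandin synthase, was at 0.727 ± 0.546 TPM.

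Variation between animals was described by the coefficient of variation (CV, the SD as a percentage of the mean) of normalised counts, set against the running median of CV over identifiers of similar mean. This ranking is a description without a test. The 6362 genes with a symbol and a mean of at least 100 normalised counts had a median CV of 19.3% and a median range of 2.02-fold from the lowest to the highest sow. The 20 most variable at matched mean had CVs of 75.4% to 160% and ranges of 8.83-fold to 657-fold, and the 20 least variable had CVs of 4.20% to 7.37% and ranges of 1.15-fold to 1.35-fold.

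**Figure D2:**
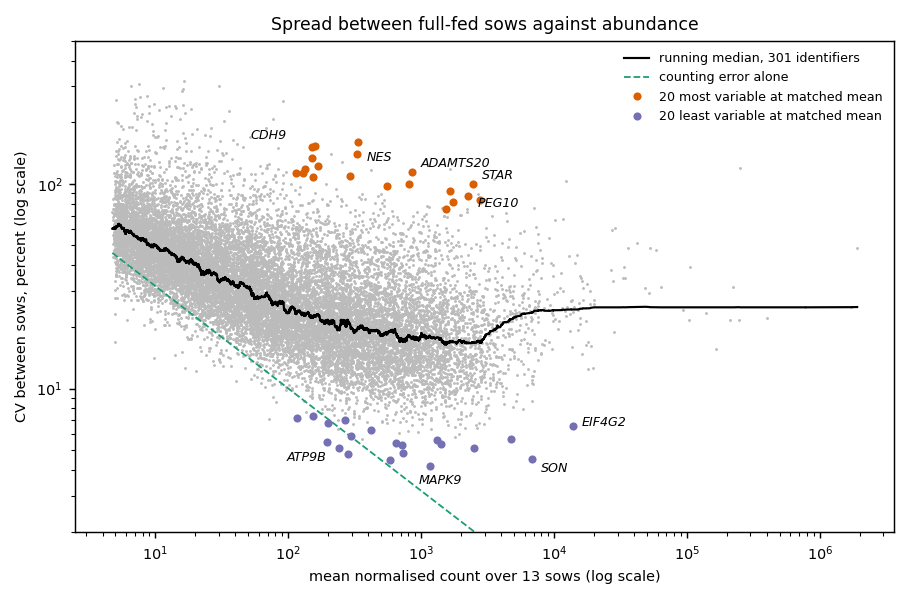
CV between the 13 FF sows, in percent, against the mean normalised count, both on a log scale, for all identifiers that passed the limit of 5. The black line is the running median, the dashed line the CV that counting error alone would give, and the coloured points are the 20 most and 20 least variable named genes, whose CVs lie at 75.4% to 160% and 4.20% to 7.37%.

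In several of the most variable genes, 1 or 2 sows stood far above the others. NES, the intermediate filament nestin, had 102 normalised counts in sow 8, a median of 165 and 1819 in sow 10, 4.27 times the next sow. Without sow 10 the CV of NES was 54.4% rather than 140% and its range 4.19-fold rather than 17.9-fold. TGFBI, an extracellular matrix protein, ran from 25.9 in sow 13 through a median of 57.3 to 678 in sow 10, and without that sow had a CV of 120% and a 15.7-fold range. COL1A1, a chain of fibrillar collagen and a theca and stroma marker, ran from 536 in sow 7 through a median of 1211 to 4731 in sow 10, with a CV of 75.4% and an 8.83-fold range that were 54.0% and 5.43-fold without it. The theca and stroma list had 5 of its 12 highest values in sow 10, where 21.7% of all identifiers were highest. Its sum was largest in sow 11, at 39649, and 39207 in sow 10. The part of stromal RNA in these genes was not tested.

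ST6GALNAC5, a sialyltransferase that extends gangliosides, had the largest CV, 160%. Its normalised count was 6.46 in sow 12, 61.7 at the median, 1426 in sow 4 and 1555 in sow 10, so that a pair of sows stood above all others. GADD45A, a gene induced by DNA damage and stress, had 34.1 in sow 8, a median of 90.1 and 645 in sow 4, 3.85 times the next sow, and without sow 4 its CV was 46.1% rather than 118%. SFTPC, known as a lung surfactant protein, ran from 45.3 in sow 2 through a median of 443 to 2036 in sow 4, and without sow 4 its range was 21.8-fold.

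Sow 14 held the highest value of 4 of the 20 genes. HBB, beta-globin, had 33.3 normalised counts in sow 8, a median of 85.6 and 956 in sow 14, 5.35 times the next sow, and without sow 14 its CV was 59.4% rather than 153%. EPB41L3, a membrane cytoskeleton protein, ran from 255 in sow 2 through a median of 1381 to 6157 in sow 14, CTNNA3, an alpha-catenin, from 104 in sow 2 through 163 to 1274 in sow 14, and DAPL1 from 480 in sow 10 through 1373 to 5964 in sow 14, or 7.75-fold without sow 10. Without sow 14 the CV was 57.8% rather than 92.4% for EPB41L3, 57.5% rather than 109% for CTNNA3 and 48.9% rather than 81.7% for DAPL1, and the ranges were 10.9-fold, 5.05-fold and 5.02-fold. Red cell and immune markers were also highest in this sow, as given above, and their part in the values of EPB41L3, CTNNA3 and DAPL1 was not tested.

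Sow 6 was highest for CDH9, PEG10, DDIT4L and NRG3. CDH9, a cadherin, had the widest range, from 1.08 normalised counts in sow 12 through a median of 46.5 to 707 in sow 6, and sow 1 had 572. PEG10, an imprinted gene derived from a retrotransposon, ran from 452 in sow 10 through 1661 to 7453 in sow 6. NRG3, a ligand of the ErbB4 receptor, ran from 7.33 in sow 10 through 72.5 to 477 in sow 6, and DDIT4L, an inhibitor of the mTOR pathway, from 25.7 in sow 10 through 55.5 to 484 in sow 6. Without sow 10 the range was 8.27-fold for PEG10 and 19.8-fold for NRG3, and without sow 6 it was 10.4-fold for DDIT4L.

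For most of the remaining genes, sows 2 and 12 held the highest values. STAR ran from 445 in sow 3 through a median of 2003 to 7258 in sow 12 and 7612 in sow 2, with a CV of 99.3%. ALAS1, the rate-limiting enzyme of haem synthesis in cells other than red cells, ran from 106 in sow 6 through 548 to 2860 in sow 12. ADAMTS20, a secreted metalloprotease, ran from 31.7 in sow 3 through 322 to 2947 in sow 12. In all 3 genes sows 2 and 12 were the highest pair. FRS2, an adapter of fibroblast growth factor receptors, ran from 921 in sow 10 through 1436 to 8191 in sow 12, with sow 2 next. CHAC1, a glutathione-degrading enzyme, ran from 8.55 in sow 10 through 98.6 to 710 in sow 2, and without sow 2 its range was 47.9-fold. LPL, lipoprotein lipase, was highest in sow 7, with 547 normalised counts against 33.1 in sow 13 and a median of 94.7.

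**Figure D3:**
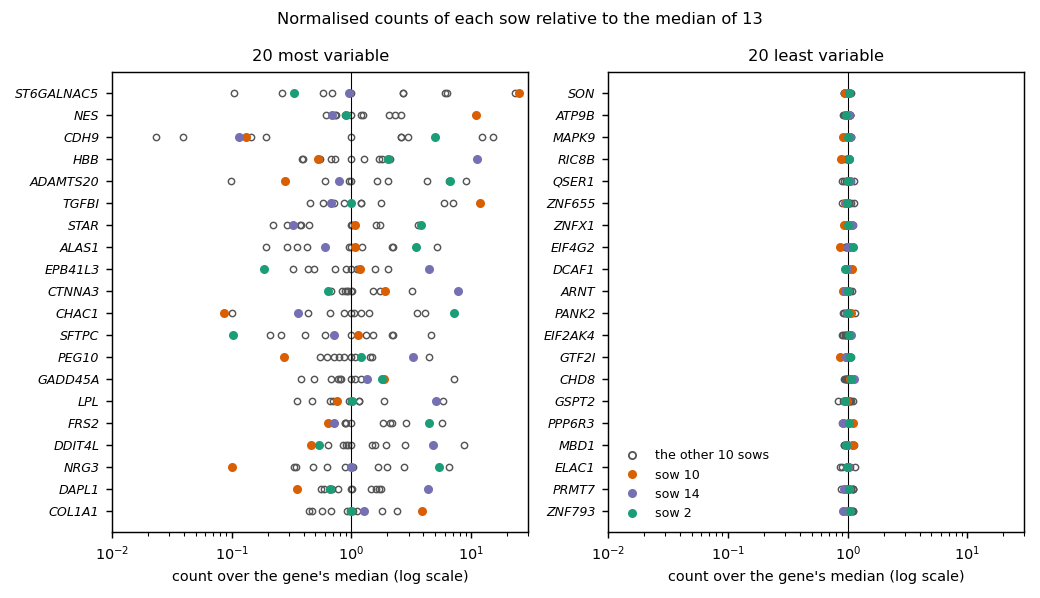
Normalised count of each FF sow divided by the median of the 13, on a log scale, for the 20 most variable genes (left) and the 20 least variable genes (right). Each circle is a sow, filled for sows 2, 10 and 14, and the points of the least variable genes lie almost on the median, whereas those of CDH9 cover a 657-fold range.

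The least variable genes included regulators of splicing, translation, chromatin and signalling. SON, a splicing factor, had 6368 normalised counts in sow 1, a median of 6854 and 7350 in sow 7, a CV of 4.53%. MAPK9, the stress kinase JNK2, ran from 1053 in sow 10 through 1142 to 1223 in sow 13, with the lowest CV of all, 4.20%. EIF4G2, a translation initiation factor, ran from 11851 in sow 10 through 13641 to 15116 in sow 13, with a CV of 6.56%. CHD8, a chromatin remodeller, had a CV of 5.33%, ARNT, the partner of hypoxia-inducible factors, 5.42%, and GTF2I, a transcription factor, 5.14%. For ATP9B, a lipid flippase, the CV of 4.81% was below the 5.95% that counting error alone would give at its mean, so that no spread between sows was detectable at this depth. The same held for ZNF655, ZNFX1, GSPT2, PRMT7 and ZNF793. SON, ARNT, ELAC1 and PRMT7 overlap DONSON, CTSK, SMAD4 and SLC7A6OS, and counting took no account of strand.

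Genes often used as references varied more than these. Of 17 reference genes, 8 lay above the running median, and their median CV was 21.8%, compared with 30.6% for all 17499 identifiers, which include many of low counts. ACTB, beta-actin, had a CV of 46.6%, from 199 normalised counts in sow 7 through 471 to 1201 in sow 10, and GAPDH, a glycolytic enzyme, one of 27.7%. UBE2D2, a ubiquitin-conjugating enzyme, had 11.2%.

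Gene groups differed in their spread. All 12 measured theca and stroma genes lay above the running median, with a median CV of 59.6%, and the 6 smooth muscle genes did so with 59.5%. Of the 49 measured genes of the G2 and M phases, 48 lay above it with a median CV of 49.4%, and of the 41 measured S phase genes, 38 lay above it with 38.6%. Over all identifiers, 8757 of 17499 lay above the line. The 20 measured genes of cholesterol synthesis and uptake had a median CV of 40.9% and 13 of them were lowest in sow 10, whereas 10 were highest in sow 12 and 7 in sow 2. HMGCS1, an early enzyme of that pathway, ran from 352 normalised counts in sow 10 through a median of 1650 to 6008 in sow 12. The 15 immediate early genes had a median CV of 55.4% and 8 of them were highest in sow 2, among them JUN, which ran from 15.4 in sow 7 through 30.8 to 99.8 in sow 2. The 17 basal lamina and focimatrix genes had a median CV of 28.0%. CVs depend on the mean count, and the immediate early genes together had a median of only 549 normalised counts. At matched mean, the median residual of log2 squared CV was 0.89 for immediate early and 0.78 for focimatrix genes. It was 2.01 for the cholesterol genes and 2.39 for the G2 and M phase genes. Above the running median lay 11 of 15 immediate early and 13 of 17 focimatrix genes.

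Principal components of the 500 identifiers with the largest spread at matched mean put 33.5% of the variance on the leading component and 18.8% on the next. Both are descriptions of the same 13 libraries from which the identifiers were chosen. Scores on the leading component had a Spearman rho of 0.74 with CDK1, 0.83 with the summed G2 and M phase genes and 0.85 with the summed S phase genes, and also of 0.72 with the theca and stroma sum and −0.66 with the endothelial sum. Leaving out 1 library, the size of the rho with CDK1 was 0.57 (without sow 2) to 0.92 (without sow 10). ST6GALNAC5, SFTPC, NES and CDC20, an activator of the anaphase-promoting complex, were among the genes high on it. Scores on the next component had a rho of 0.82 with CYP11A1, or 0.57 without sow 2, with STAR, ALAS1, PAPPA and CYP17A1 among the high genes and CDH9, DDIT4L and EPB41L3 among the low ones.

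Which genes follow CDK1 was asked with Spearman's rho over the 13 libraries. CDK1 (chr14:64233945-64255290, plus strand, Sscrofa11.1) had 178 normalised counts in sow 2, a median of 528 and 1552 in sow 3, with sow 4 at 1340. The values form a gradual series in which sow 2 lies lowest and sows 3 and 4 lie highest. Of 17498 identifiers tested, 109 (0.623%) had a positive and 9 (0.0514%) a negative rho that passed an exact two-sided permutation test at an adjusted p under 0.05 (Benjamini-Hochberg). Of the 109, 96 had a symbol and 27 of these were members of the S or G2 and M phase lists. At an unadjusted p under 0.05 there were 1296 positive (7.41%) and 1037 negative (5.93%) identifiers. The number of calls changed with the libraries. Without sow 4 there were 33 calls, without sow 3 there were 41, without sow 2 there were 61, without sow 1 there were 62, without sow 11 there were 78 and without sow 10 there were 230. Without both sows 3 and 4 there was none, although 118 of the 118 kept their sign and an unadjusted p under 0.05.

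The 15 genes with the highest rho, 0.95 to 0.97, had adjusted p values of 0.00335 to 0.00547 in the exact permutation test. Many of them act in mitosis. CCNB1, cyclin B1, the activating partner of CDK1, had 153 normalised counts in sow 2, a median of 827 and 1888 in sow 3, with a rho of 0.97 and a Pearson r of 0.94 on the log2 scale. CKS2, a small subunit of the same kinase complex, ran from 226 in sow 2 through 530 to 1226 in sow 3. BORA, which helps to activate Aurora A, ran from 41.6 in sow 2 through 115 to 173 in sow 3, and overlaps MZT1. All 3 were lowest in sow 2 and highest in sow 3, as CDK1 was.

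Among genes that act at the kinetochore and spindle, NDC80, which holds microtubules, ran from 147 in sow 2 through 605 to 1139 in sow 4 with a rho of 0.97. CENPI, a centromere protein, ran from 200 in sow 2 through 355 to 713 in sow 3. KIF11, the motor that separates spindle poles, ran from 509 in sow 2 through 1551 to 3430 in sow 3. BUB1 and MAD2L1, which hold back anaphase until chromosomes are attached, had rho values of 0.95, as did NUSAP1, which stabilises spindle microtubules and overlaps OIP5 and NDUFAF1.

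The other members had varied roles. CDKN2C, an inhibitor of CDK4 and CDK6, had the highest rho of all, 0.97, with 106 in sow 2, 195 at the median and 497 in sow 3. It was therefore high in the sows with high CDK1. PBK and MELK, mitotic kinases, had rho values of 0.96 and 0.95, UBE2T, the ubiquitin-conjugating enzyme of the Fanconi anaemia pathway, 0.95, and MND1, a partner in meiotic recombination, 0.95. GPR19, an orphan receptor, ran from 19.4 in sow 2 through 49.1 to 93.7 in sow 4, also with a rho of 0.95.

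These 15 relations did not rest on a single library. Leaving out each sow in turn gave rho values of 0.92 to 0.99, and all 15 were called in each of these 13 fits. Without sows 3 and 4 they were 0.91 to 0.96. By the base quality of their reads, as the study lists it, the libraries fall into an upper group of 7 sows and a lower group of 6. Within these groups rho was 0.93 to 1 and 0.83 to 0.94, although the place of sow 10 in the lower group is uncertain. The quasi-likelihood test of edgeR with log2 CDK1 as covariate called all 15, and 210 identifiers (1.2%) with a positive and 38 (0.217%) with a negative slope in all.

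Upstream sequence is shown for CDK1 and for CCNB1 and UBE2T, which follow it, because many mitotic genes are held back outside mitosis through a short element, the cell cycle genes homology region (CHR), that lies near a CCAAT box bound by NF-Y. They were chosen among the genes with a match, and other genes that follow CDK1 had none. Each line gives the 250 bases before the RefSeq gene start in Sscrofa11.1, 5′ to 3′ on the strand of the gene, with matches to TTTGAA or TTCGAA (CHR) and to CCAAT on either strand in capitals. CDK1 lies at chr14:64233695-64233944, plus strand, CCNB1 at chr16:47337989-47338238, plus strand, and UBE2T at chr10:24459086-24459335, minus strand.
CDK1: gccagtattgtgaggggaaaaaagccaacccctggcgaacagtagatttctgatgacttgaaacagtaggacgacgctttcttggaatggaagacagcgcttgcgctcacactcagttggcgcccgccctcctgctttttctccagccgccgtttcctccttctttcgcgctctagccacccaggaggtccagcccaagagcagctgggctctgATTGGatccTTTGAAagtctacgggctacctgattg
CCNB1: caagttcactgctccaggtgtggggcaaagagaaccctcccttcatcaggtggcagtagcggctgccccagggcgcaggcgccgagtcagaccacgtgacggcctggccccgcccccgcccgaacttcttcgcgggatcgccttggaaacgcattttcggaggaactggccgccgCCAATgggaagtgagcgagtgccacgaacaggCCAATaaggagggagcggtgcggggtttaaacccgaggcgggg
UBE2T: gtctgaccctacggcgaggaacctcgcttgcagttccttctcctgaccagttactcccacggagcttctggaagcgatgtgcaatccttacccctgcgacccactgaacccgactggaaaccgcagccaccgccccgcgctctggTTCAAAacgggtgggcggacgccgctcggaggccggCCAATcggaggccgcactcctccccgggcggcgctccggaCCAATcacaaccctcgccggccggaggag
In CDK1 the CCAAT match ended 31 bases and the CHR match 21 bases before the gene start. CCNB1 held a pair of CCAAT matches, at 70 and 38 bases, and none to the CHR letters in this window. UBE2T held 1 CHR match, at 99 bases, and CCAAT matches at 64 and 24 bases. Of the 96 named genes called positive with CDK1, 92 had an upstream window, and 26 of these (28.3%) held a CHR match, 40 (43.5%) a CCAAT match and 13 (14.1%) both. Among all 19501 protein-coding genes of RefSeq the shares were 13.9%, 31.9% and 4.66%, and among 10456 genes expressed here 12.5%, 32.8% and 4.20%. In the G2 and M phase list, 17 of 53 windows (32.1%) held a CHR match and 30 (56.6%) a CCAAT match, and in the S phase list 5 of 41 (12.2%) and 21 (51.2%). For the 15 genes with the highest rho, 4 and 7 of 15 windows held them and 2 held both, so that 6 held neither. For the 15 with the lowest rho, 3 and 6 of 14 windows held them and 1 held both. A match shows only that the letters are present.

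**Figure D4:**
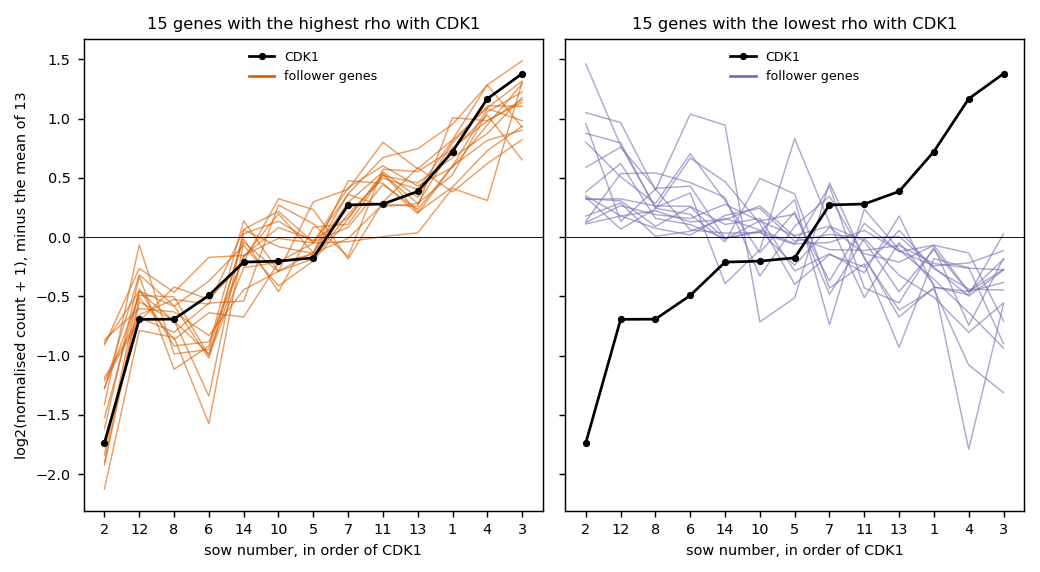
Expression of CDK1 (black) and of the 15 genes with the highest (left) and lowest (right) rho with it, as log2(normalised count + 1) minus the mean of 13, for each FF sow in order of CDK1. The followers on the left climb from sow 2 to sows 4 and 3 together with CDK1, at rho 0.95 to 0.97, and those on the right descend at rho −0.93 to −0.80.

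All 49 measured genes of the G2 and M phases had a positive rho with CDK1, with a median of 0.88, and 25 passed the test, compared with 0.623% of all identifiers, whose median rho was −0.01. TOP2A, the topoisomerase that untangles sister chromatids, is an example, with 1592 normalised counts in sow 2, a median of 7135 and 14508 in sow 3, and a rho of 0.93 (adjusted p = 0.0088, exact permutation test). The group was lowest in sow 2 for 41 genes and highest in sow 3 for 21 and in sow 4 for 16. The tests with a covariate called 38 of the 49 in edgeR and 46 in DESeq2, all with a positive slope. Of all identifiers, edgeR called 210 of 17498 (1.2%) with a positive slope and DESeq2 called 374 of 15123. Of the 41 measured S phase genes, all had a positive rho with a median of 0.69, and 33 had an unadjusted p under 0.05, but only PRIM1, the small subunit of DNA primase, at 0.91, and RRM1, the large subunit of ribonucleotide reductase, at 0.86, passed the adjusted test. PCNA, the sliding clamp of DNA polymerase, had a rho of 0.75 (adjusted p = 0.167, exact permutation test). With the covariate, edgeR called 9 of the 41 S phase genes, among them PRIM1 but not RRM1, and DESeq2 called 20, all with a positive slope. The S phase genes were highest in sow 4 for 27 members and in sow 10 for 12.

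Among 6 inhibitors of cyclin-dependent kinases, CDKN2C and CDKN3 were called, the latter with a rho of 0.88 (adjusted p = 0.030, exact permutation test). CDKN3 is a phosphatase that acts on CDK1 itself. CDKN1A, which encodes p21, had a rho of −0.36 with CDK1 and of 0.68 with CYP11A1, and CDKN1B, which encodes p27, of −0.04 with CDK1, none of which passed the adjusted test. Ribosomal protein genes had a positive rho with CDK1 in 54 of 54 measured members, with a median of 0.59, 29 of them at an unadjusted p under 0.05 and none called by the exact test. The cholesterol list had a negative rho in 19 of 20 members, with a median of −0.41. None was called by the exact test, and 2 had an unadjusted p under 0.05. edgeR and DESeq2 each called 1 with a negative slope, compared with 38 of 17498 and 143 of 15123 identifiers.

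Negative relations with CDK1 were fewer. SMAD9, a transducer of bone morphogenetic protein signals, had the lowest rho among genes with a symbol, −0.93 (adjusted p = 0.0088, exact permutation test), with 117 normalised counts in sow 4, a median of 203 and 358 in sow 2. CAMKMT, a methyltransferase of calmodulin, followed at −0.88 (adjusted p = 0.027), though at −0.58 with total-count scaling and then not called (adjusted p = 0.465), and CCBE1, a secreted factor of lymphatic growth, at −0.87 (adjusted p = 0.034), the latter with 29.2 in sow 3, 58.6 at the median and 96.9 in sow 12. In all 3 genes sows 3 and 4 were among the lowest 3 sows, and sow 2 or sow 12 was the highest. CCBE1 was at −0.74 with total-count scaling and at −0.82 after subtracting the group medians by base quality, and was called in neither. SMAD9 was at −0.88 and −0.91 under these settings. Leaving out each sow in turn, SMAD9 was called in 12 of 13 fits, CAMKMT in 6 and CCBE1 in 4. The other 12 of the 15 genes with the lowest rho, from DNAJC27 at −0.85 to UNC13B at −0.80, did not pass, with adjusted p values up to 0.111. edgeR called SMAD9, CCBE1, SLC16A10, CNTN5 and MGAM of these 15. Within the upper and lower groups by base quality, the 15 had rho values of −1 to −0.71 and of −0.94 to −0.49.

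CYP11A1 (chr7:59172829-59188479, plus strand, Sscrofa11.1) had 187 normalised counts in sows 4 and 14, a median of 467, 974 in sow 12 and 1280 in sow 2. Its relations use the same 13 libraries as those of CDK1. Of 17498 identifiers, 1 passed the exact permutation test (0.00571%), an identifier without a symbol whose rho was 0.96, and no negative one passed. It was not called when any of 11 sows was left out (all but sows 1 and 6) or with TMM factors. Another identifier was called in its place without sow 13, and POC5, with a negative rho, without sow 10 and with TMM factors. At an unadjusted p under 0.05 there were 733 positive (4.19%) and 698 negative (3.99%) identifiers, 8.18% in all. edgeR with log2 CYP11A1 as covariate called 37 identifiers, of which 21 (0.12%) had a positive and 16 (0.0914%) a negative slope, with 1622 at an unadjusted p under 0.05. DESeq2 called 212 of 17498, 100 with a positive and 112 with a negative slope. None of the 30 genes named here passed the exact permutation test after adjustment, so their rho values are given as a ranking.

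**Figure D5:**
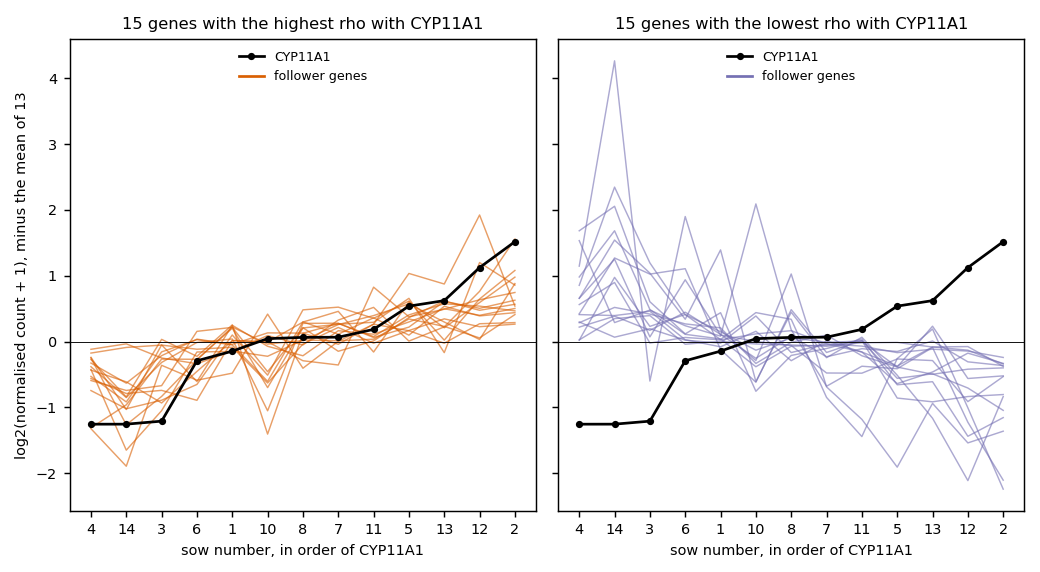
Expression of CYP11A1 (black) and of the 15 genes with the highest (left) and lowest (right) rho with it, as log2(normalised count + 1) minus the mean of 13, for each FF sow in order of CYP11A1. The genes on the left have rho values of 0.83 to 0.91 and those on the right of −0.93 to −0.81, and none of them passed the adjusted exact test.

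The highest rho among named genes belonged to FBP2, the muscle type of fructose bisphosphatase, at 0.91 (adjusted p = 0.122, exact permutation test), with 11.7 normalised counts in sow 14, a median of 39.1 and 116 in sow 2. PRKX, a catalytic kinase activated by cAMP, followed at 0.88 with 67.2 in sow 14, a median of 253 and 959 in sow 12. Both were lowest in sow 14 and highest in a sow with high CYP11A1. CPT1A, which admits fatty acids to mitochondria, had a rho of 0.84 and ran from 75.7 in sow 14 through 187 to 338 in sow 2. IGF1R, the receptor of insulin-like growth factor 1, had a rho of 0.84 within a narrow range of 910 in sow 14, a median of 1448 and 1724 in sow 2. FKBP4, a chaperone partner of steroid receptors, had a rho of 0.86, and PLA2G4A, which releases arachidonic acid and overlaps PTGS2, one of 0.84. edgeR called FBP2, PRKX, FAM222A, ABLIM1, ARHGEF3 and PLA2G4A of the 15 highest. Within the upper group by base quality the 15 had rho values of 0.64 to 0.96, and within the lower group of 0.31, for CPT1A, to 0.89.

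The lowest rho belonged to POC5, a centriole protein, at −0.93 (adjusted p = 0.0708, exact permutation test). It had 222 normalised counts in sow 2, a median of 442 and 1475 in sow 14. Of the 13 fits that leave out 1 sow, it was called only without sow 10 (adjusted p = 0.028, exact permutation test), and it was also called with TMM factors and after subtracting the group medians by base quality, each with a rho of −0.96 and an adjusted p of 0.040 in the exact permutation test. ANKDD1B, at −0.87, ran from 133 in sow 12 through 338 to 1514 in sow 14. It overlaps the end of POC5 on the opposite strand over a short stretch, within which reads cannot be assigned. ADM, the vasoactive peptide adrenomedullin, had a rho of −0.91, with 11.8 in sow 12, 22.2 at the median and 56.5 in sow 14. EPB41L3 was at −0.86, DSG2, a desmosomal cadherin, at −0.84, and CCNG2, an atypical cyclin of cells leaving the cycle, at −0.82. With total-count scaling the 15 lowest had rho values of −0.82 to −0.34, with DSG2 at −0.53, CCDC138 at −0.40 and CNTLN at −0.34. Within the upper group by base quality the 15 lowest had rho values of −0.96 to −0.71, and within the lower group of −1 to −0.37, the latter for CCNG2. Of the 15 lowest, 10 were highest in sow 14, the library with the largest red cell and immune sums, and the part of these cells was not tested. edgeR called POC5, ANKDD1B, EPB41L3, DGKB and MCPH1 of them, and MCPH1 overlaps ANGPT2.

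Genes of steroid synthesis had a positive rho with CYP11A1 in 15 of 18 measured members besides CYP11A1 itself, with a median of 0.40. Of these, 7 had an unadjusted p under 0.05 and none was called by the exact test. STAR had the highest, 0.73, followed by FDX1 at 0.71, HSD11B2, which inactivates cortisol, at 0.69, SCARB1, the receptor that takes up cholesterol from lipoproteins, at 0.66, POR, the electron donor of microsomal P450 enzymes, at 0.64, SOAT1, which stores cholesterol as esters, at 0.64 and CYP17A1 at 0.58. STAR alone was called by edgeR, and DESeq2 called 3 with a positive slope, compared with 21 and 100 of 17498 identifiers. FDX1 ran from 1454 normalised counts in sow 3 through a median of 3087 to 5249 in sow 2, and SCARB1 from 246 in sow 14 through 781 to 1285 in sow 12. Of the 19 genes of the list, 8 were highest in sow 2 and 10 lowest in sow 14.

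The gonadotropin receptors had opposite signs. LHCGR had a rho of 0.59 with CYP11A1 (adjusted p = 0.599, exact permutation test), with 2940 normalised counts in sow 10, a median of 13455 and 26270 in sow 2. FSHR had a rho of −0.58 (adjusted p = 0.606), with 165 in sow 7, 433 at the median and 1099 in sow 4. Among 16 genes of the inhibin and activin system, 6 had an unadjusted p under 0.05 and none was called by the exact test or edgeR. DESeq2 called 2 with a positive and 2 with a negative slope, compared with 100 and 112 of all 17498 identifiers. FSTL3, a follistatin-like inhibitor of activin, had a rho of 0.79 and AMHR2, the receptor of anti-Müllerian hormone, of 0.67, whereas SMAD2 and TGFBR3, the inhibin co-receptor, were each at −0.74 and FST at −0.63. The 13 measured genes of the insulin-like growth factor system had a median rho of 0.02, with 7 positive and 6 negative, 4 at an unadjusted p under 0.05 and none called by the exact test or edgeR, while DESeq2 called 1 with a positive slope. Among these 4, IRS2, an adapter of the insulin receptor, was at −0.74 and STC1, stanniocalcin, at −0.71, whereas PAPPA, a protease of binding proteins, was at 0.64 and IGF1R at 0.84 as given above. The G2 and M phase genes had a negative rho with CYP11A1 in 48 of 49 members, with a median of −0.44 and 1 member at an unadjusted p under 0.05. None was called by the exact test or edgeR, and DESeq2 called 1 with a negative slope.

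The anchors themselves had a rho of −0.47 (exact two-sided permutation p = 0.106) and a Pearson r of −0.70 on the log2 scale (100000 permutations, p = 0.00833). Sow 2 had the lowest CDK1 and the highest CYP11A1, and sow 4 was next to highest for CDK1 and among the lowest for CYP11A1. Without sows 3 and 4, the libraries farthest from the CDK1 median, rho was −0.21 and r was −0.48, and without sows 2 and 12, the farthest from the CYP11A1 median, rho was −0.13. The relation thus rests on the sows at the ends. Within the upper group by base quality of the reads rho was −0.50 (exact permutation p = 0.267, n = 7) and within the lower group −0.49 (exact permutation p = 0.356, n = 6).

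Depth, mitochondrial share and the marker sums of other cells were set against both anchors in 22 relations. None passed the adjusted exact permutation test, and 2 had an unadjusted p under 0.05. The endothelial sum had a rho of −0.66 with CDK1 (exact permutation p = 0.0169, adjusted p = 0.373) and GDF9, as the oocyte sum, one of −0.59 with CYP11A1 (exact permutation p = 0.036, adjusted p = 0.395). EMCN, an endothelial sialomucin, had the lowest rho with CDK1 among the endothelial markers, −0.76. The theca and stroma sum had a rho of 0.43 with CDK1 and −0.02 with CYP11A1, and the granulosa sum 0.51 and −0.20. With CYP11A1 the endothelial sum had a rho of 0.53 (exact permutation p = 0.0673) and the smooth muscle sum one of 0.49 (exact permutation p = 0.093), and 7 of 7 endothelial and 6 of 6 smooth muscle markers were positive. The part of other cells in the relations of either anchor was not tested.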

How the data were processed

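RNA of laser-captured mural GCs was sequenced as ribosomal-RNA-depleted libraries with unique molecular identifiers. The deposited files hold raw counts of read pairs per Ensembl gene (release 110, Sscrofa11.1). Per the file headers and the submitters' processing notes, the authors aligned with HISAT2 2.2.1, kept uniquely aligned reads, removed PCR copies with UMI-tools 1.1.4, and counted exons with featureCounts 1.6.2 without a strand option, so reads from exons shared by overlapping genes cannot be separated. The notes also name SAMtools 1.16.1.

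From the 13 FF files, identifiers with an average count of 5 or more were kept. Symbols came from the RefSeq gene table, and identifiers without a match there stayed in the tests without a name, so that AKT1, CYP19A1 and MKI67 are not described here. Counts were divided by DESeq2 1.42.0 size factors. TPM used the RefSeq transcript length matched by symbol, since the files hold no length, in place of the planned exon length. Variability was the residual of log2 squared CV from its running median. Spearman's rho with exact two-sided permutation p values, adjusted by Benjamini-Hochberg over all identifiers, related genes to each anchor, and Pearson's r used log2(normalised count + 1) with 100000 permutations. edgeR 4.0.16 (quasi-likelihood) and DESeq2 (Wald test) with the log2 anchor as covariate were alternatives, beside other scalings, filters and left-out libraries. The follower calls and the variability residual were tested on simulated counts, and the exact p values against full enumeration of small simulated sets. The other steps were not tested on simulated data. R 4.3.3, Python 3.11.15, scipy 1.17.1 and matplotlib 3.10.9 were used. Named were the 20 most abundant nuclear genes, the 20 most and 20 least variable genes with a mean of at least 100 normalised counts, the 15 highest and 15 lowest followers of each anchor with a mean of at least 20, and members of gene lists. The members and lists were chosen with earlier results of these data known. The depth of 12299220 to 16021200 counts limits precision for low genes, and the CV from counting error was compared with the observed CV. Libraries of the restricted diet were not used here.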

Additional observations from a re-analysis of the deposited data

How the results depend on the processing

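The number called with CDK1 was 118. It was 33 (without sow 4, 32 shared with the 118) to 230 (without sow 10, 112 shared) when 1 library was left out, 0 without the 2 libraries farthest from the CDK1 median, 248 by edgeR (107 shared) and 517 by DESeq2 (112 shared). For CYP11A1, leaving out 1 library gave 0 to 1 calls, with 0 without sow 2, 3, 4, 5, 7, 8, 11, 12 or 14. There were 0 with total-count scaling, without the 2 farthest libraries (787 at an unadjusted p under 0.05), with at least 1 count in 7 libraries and with symbols only, 2 after subtracting the median of each read quality group, 37 by edgeR and 212 by DESeq2. The relation of CDK1 with CYP11A1 was −0.70 as Pearson's r, and rho was −0.60 (without sow 14, exact permutation p = 0.0428) to −0.28 (without sow 12). Of the 20 most variable genes, 12 were shared with a ranking by edgeR dispersion, 7 with one by median absolute deviation and 16 to 19 without 1 library. For the 20 least variable these were 10, 6 and 11 (without sow 10) to 18. Of the 20 most abundant genes, 9 were shared without division by length. The cause of these differences was not tested. None of the 60 named follower relations or 40 named variable genes changed direction under the alternatives run. They were picked as the extremes of the same libraries, which most alternatives reuse, so the lack of reversals gives them no support. Counts of list members by direction did change. Leaving out 1 library, 6 to 13 steroidogenesis genes were positive with CDK1, and 10 to 20 cholesterol genes and 1 to 15 S phase genes with CYP11A1. Exon union length, components, technical measures, list counts and another trend window were alternatives chosen after seeing the data. No paired analysis was possible because each sow gave 1 library and only 1 diet group was analysed.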
